A study of Mus musculus with 8 samples.

Results

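Heat shock chaperone genes were examined in islets of aged mice in which Igf1r, the gene of the insulin-like growth factor 1 receptor, was targeted in β-cells. The genes were chosen by symbol and were 10 of the 53012 Ensembl gene identifiers in the count table: Hspa1a, Hspa1b, Hspa8, Hsp90aa1, Hsp90ab1, Hsph1, Dnajb1, Hspb1, Hspd1 and Hspe1. All 10 passed the filter on low counts, which kept 15474 genes. Bulk RNA-seq libraries, 1 per mouse, came from the islets of 4 βIgf1rKD and 4 βIgf1r animals, all 17 months old. Every mouse carried Igf1r alleles floxed at exon 3. The βIgf1rKD mice (labelled KD) were Ins1-CreERT2 +/- and were given tamoxifen intraperitoneally at 0.075 mg/g on 5 days in a row. The βIgf1r mice (labelled CTRL) were Ins1-CreERT2 -/- and received corn oil. Islets were prepared by collagenase digestion 7 days after dosing ended. Both sexes were present in each group and are not marked per mouse. The methods describe the Cre as driven by a rat insulin promoter, while the genotype is written Ins1-CreERT2. Since the controls lacked both Cre and tamoxifen, the effects of the Igf1r deletion, of Cre and of tamoxifen cannot be told apart.

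Chaperones bind proteins that are unfolded or not yet folded and keep them from aggregating. HSP70 proteins take up short exposed stretches of a client in cycles driven by ATP, J-proteins deliver clients to them, and HSP110 proteins exchange the nucleotide. HSP90 proteins finish the folding of kinases and steroid receptors, small heat shock proteins hold unfolded clients without using ATP, and the HSP60 and HSP10 chaperonin folds proteins inside mitochondria. When proteins misfold, the transcription factor HSF1 binds heat shock elements, repeats of the unit GAA in alternating orientation, and drives transcription of these genes. In β-cells, which make insulin in large amounts, most folding of the hormone takes place in the endoplasmic reticulum with a separate set of chaperones, and the genes described here act mainly in the cytosol, nucleus and mitochondria.

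The heat shock elements in front of these genes are shown because they are the sequences by which the genes are known to respond together. Of the 10 genes, 7 had a promoter in the RefSeq table (GRCm38.p6), with 10 start sites, whereas Hspa8, Hsp90aa1 and Hsp90ab1 were not found in it. The 250 bases before each start were searched on both strands for a pair of facing units, written GAANNTTC or TTCNNGAA, each of which reads the same on the other strand. Pairs that share a unit were counted separately. Of the 10 windows 7 held at least 1 pair, beside 12.8% of all 32851 promoter windows of this length. The window pairs of Hsph1 and of Hspd1 with Hspe1 overlap, so these counts are not of separate stretches. Neither window of Dnajb1 held a pair. For Hspd1 the window before its outer start (55088243) held 0 pairs, and those shown lie before its inner start (55087932). That window and the window of Hspe1 are annotated as exon over all 250 bases. Below, the capitals mark the units, and all sequences run 5′ to 3′ on the strand of the gene named.
Hspe1, chr1:55088053-55088082, plus strand: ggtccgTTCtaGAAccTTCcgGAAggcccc
Hspd1, chr1:55088053-55088082, minus strand: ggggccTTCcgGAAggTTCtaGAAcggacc
Hspb1, chr5:135887801-135887830, plus strand: aGAAgtTTCcagatgggggcaGAAccTTCc
Hsph1, chr5:149636351-149636380, minus strand: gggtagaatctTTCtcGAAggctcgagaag
Hspa1a, chr17:34972242-34972271, minus strand: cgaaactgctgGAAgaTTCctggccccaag
Hspa1b, chr17:34959324-34959353, minus strand: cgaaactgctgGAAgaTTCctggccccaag
Hspd1 and Hspe1, which encode the partners HSP60 and HSP10, lie head to head on chromosome 1, and the first 2 lines are the same stretch of DNA read on its opposite strands. Its 3 overlapping pairs, starting 89, 84 and 79 bases before the start of Hspe1, form an unbroken array, and 0.14% of all promoter windows held 3 or more pairs. Hspb1 held 2 pairs, 117 and 97 bases before its start, a number that 1.46% of windows reached. Hsph1 held 1 pair, 33 and 54 bases before its 2 annotated starts. Its 2 windows have 40 and 61 bases annotated as exon, and the pair lies in that part. The promoters of Hspa1a and Hspa1b each held 1 pair, 104 bases before the start, and differed from each other at 3 of 250 positions. Both are given in full, since reads of these genes are also hard to tell apart, followed by that of Hspb1.
Hspa1a, chr17:34972157-34972406, minus strand: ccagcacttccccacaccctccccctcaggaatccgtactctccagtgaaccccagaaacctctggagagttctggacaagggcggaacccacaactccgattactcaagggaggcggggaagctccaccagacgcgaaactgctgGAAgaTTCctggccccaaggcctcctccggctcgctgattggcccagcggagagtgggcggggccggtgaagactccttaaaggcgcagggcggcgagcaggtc
Hspa1b, chr17:34959239-34959488, minus strand: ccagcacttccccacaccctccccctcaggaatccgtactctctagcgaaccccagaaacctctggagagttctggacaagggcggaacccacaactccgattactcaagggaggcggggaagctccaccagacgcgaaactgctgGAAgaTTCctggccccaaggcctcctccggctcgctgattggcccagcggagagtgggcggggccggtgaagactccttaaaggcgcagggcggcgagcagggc
Hspb1, chr5:135887669-135887918, plus strand: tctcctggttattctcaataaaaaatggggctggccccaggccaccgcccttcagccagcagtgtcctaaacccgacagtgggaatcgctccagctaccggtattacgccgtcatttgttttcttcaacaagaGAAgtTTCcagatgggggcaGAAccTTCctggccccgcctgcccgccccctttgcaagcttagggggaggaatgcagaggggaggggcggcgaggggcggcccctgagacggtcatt
A match is a description of letters, and a missing match says only that these letters are not in the window.

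Total counts per mouse lay between 21633925 and 42391106. TMM factors, which correct the library size for differences in composition, lay between 0.803 and 1.23. Between 2.0% and 16.5% of the counts came from 12 genes of digestive enzymes made by acinar cells. β-cell markers were abundant in every mouse, at a sum of 127000 to 202600 CPM (counts scaled to library size and TMM factor) over 8 genes. Igf1r itself was at 53.59 ± 7.208 CPM in the controls and 50.69 ± 4.996 CPM in βIgf1rKD mice (SD, n = 4 each), a log2 fold change of -0.08 (SE 0.11), and the groups overlapped (exact permutation test, two-sided, p = 0.543). A shorter transcript lacking the floxed exon still counts for the gene, and reads over that exon were not examined here. The paper reports lower islet Igf1r mRNA by qPCR and lower IGF1R protein by Western blot, over other age ranges. In bulk RNA, fewer cells of a type and less RNA per cell cannot be told apart.

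To compare the groups, all genes were fitted together by edgeR's quasi-likelihood test, with p-values adjusted over all genes tested by the Benjamini-Hochberg method. Fold changes are of βIgf1rKD over βIgf1r mice throughout. Of the 10 chaperone genes 9 had a higher and 1 a lower estimate in βIgf1rKD mice, beside 52.3% of all genes tested with a higher estimate. The median log2 fold change over the 10 genes was 0.32 (-0.011 to 0.69), whereas the median over all genes tested was 0.008, with 5th and 95th percentiles of -0.393 and 0.541. At an unadjusted p under 0.05, Hspa1a and Dnajb1 were higher, 2 of the 10 genes, beside 2.23% of all genes higher at that threshold, and 0 were lower, beside 1.89%. At an adjusted p under 0.05 there were 0 of the 10 genes and 0.0% of all genes, and the smallest adjusted p of any gene was 0.948 (edgeR). Other tools called 8 genes (DESeq2) and 1 gene (limma-voom) of all genes at an adjusted p under 0.05. The groups did not overlap for 1 of the 10 genes, Hspa8, beside 2.22% of all genes. The number at the unadjusted threshold ranged from 0 to 4 when each mouse was left out in turn. It was 0 without M145 or without M146, 1 without M148, M153 or M150, and 4 without M149. In that order of mice, 224, 645, 203, 188, 492 and 302 of all genes tested were higher at it, beside 345 with all 8 mice. The number of chaperone genes was 4 by limma-voom, with Hspa1b and Hspa8 besides the named pair, and 5 by DESeq2, with Hsph1 as well. Of all genes tested, 245 were higher by limma-voom and 393 by DESeq2 at the same threshold. With the expression of Xist, a transcript of female cells, as covariate the number of chaperone genes was 1, and the gene was Hspb1. Of all genes 729 were then higher at the threshold. With library size alone in place of TMM, the median over all genes moved by -0.199, and 6 of the 10 genes were then above 0. Relative to the median over all genes, 9 of the 10 were higher under either scaling.

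**Figure D1:**
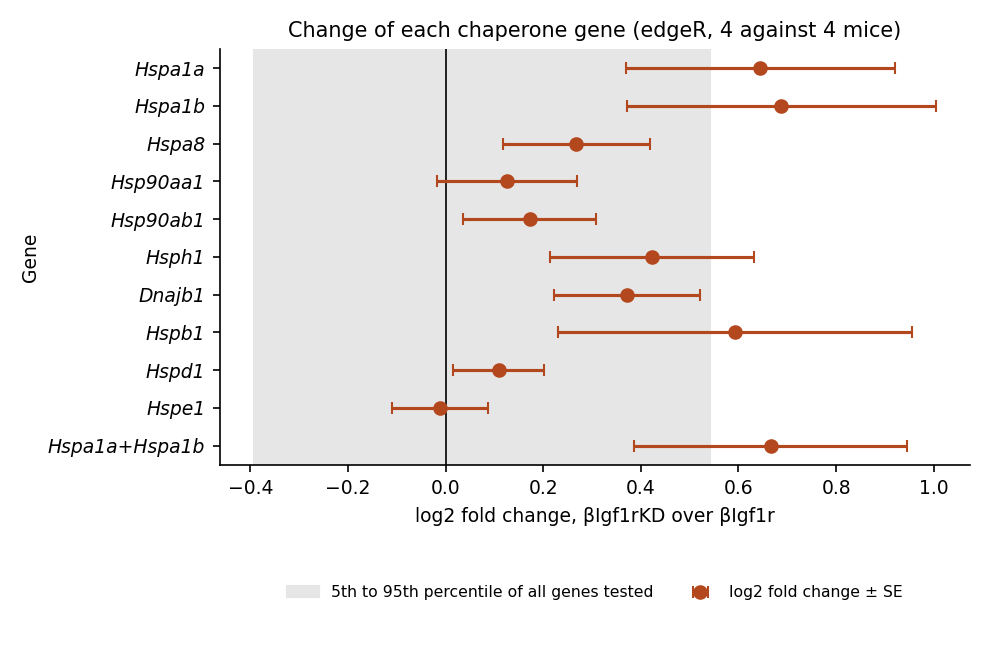
Log2 fold change of each chaperone gene, βIgf1rKD over βIgf1r, from edgeR with 4 mice in each group. Points are estimates, bars are ± 1 SE, the lowest point is the sum of Hspa1a and Hspa1b, and the shaded band holds the 5th to 95th percentile of all genes tested. Hspa1a, Hspa1b, their sum and Hspb1 lie to the right of the band and Hspe1 lies at -0.011.

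The inducible HSP70 genes were described first. Hspa1a (ENSMUSG00000091971, GRCm38 chr17:34969190-34972156, minus strand) and Hspa1b (ENSMUSG00000090877, chr17:34956436-34959238, minus strand) are neighbours that encode the HSP70 known for its strong induction by heat. Of the 31-base words of Hspa1a transcripts 63.8% were also in Hspa1b, so how the reads were divided between both genes is uncertain, and both were also added together. The antisense gene Gm10501 shared 12.1% of the words of Hspa1a and had 26 to 76 counts per mouse. Hspa1a was at 2.901, 4.656, 4.45 and 2.275 CPM in the βIgf1r mice M148, M151, M152 and M153, and at 5.427, 7.426, 3.7 and 5.796 CPM in the βIgf1rKD mice M145, M146, M149 and M150. Values below are given in this order of mice. Hspa1b was at 2.103, 4.692, 4.094 and 2.133 CPM in βIgf1r and at 4.351, 6.998, 3.613 and 5.969 CPM in βIgf1rKD mice. For both genes M148 and M153 were the lowest, M146 was the highest, and M149 lay below the highest 2 of the controls. The counts behind these values were 45 to 242 per gene and mouse.

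Summed over both genes, the level was 5.004, 9.349, 8.544 and 4.408 CPM in βIgf1r and 9.778, 14.42, 7.313 and 11.76 CPM in βIgf1rKD mice. The means were 6.826 ± 2.482 and 10.82 ± 3.015 CPM (SD, n = 4 each), and the groups overlapped because M149 lay below M151 and M152. The fold change was 1.59, a log2 fold change of 0.67 (SE 0.28), with an edgeR p = 0.0398, an adjusted p = 0.987 and an exact permutation p = 0.114 (two-sided). The smallest p that 4 against 4 mice allow in that permutation test is 0.0286. Leaving out each mouse in turn gave log2 fold changes of 0.497 to 0.854 and edgeR p-values of 0.0163 to 0.115, with 5 of the 8 above 0.05 (without M148, M153, M145, M146 and M150). The value was 0.416 with Xist as covariate and 0.511 with library size alone, neither below 0.05. Taken apart, Hspa1a had a log2 fold change of 0.65 (SE 0.28) and Hspa1b of 0.69 (SE 0.32), each with an adjusted p = 0.987 (edgeR).

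Hspa8 (ENSMUSG00000015656, chr9:40800984-40810087, plus strand) encodes HSC70, the HSP70 that cells make without stress. Its level was 1088, 1348, 1343 and 1041 CPM in βIgf1r and 1406, 1576, 1370 and 1452 CPM in βIgf1rKD mice. The lowest βIgf1rKD mouse, M149, lay just above the highest control, M151, so the groups did not overlap. The means were 1205 ± 163.2 and 1451 ± 89.73 CPM (SD, n = 4 each), and the log2 fold change was 0.27 (SE 0.15). The exact permutation test gave p = 0.0286, the smallest it can give, and edgeR gave an adjusted p = 0.987 over all genes. With library size alone the groups overlapped. Processed pseudogenes share many 31-base words with Hspa8, 68.9% in the case of Gm15459, and near-copies held at most 0.086% as many counts as Hspa8.

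Hsph1 and Dnajb1 are partners of HSP70. Hsph1 (ENSMUSG00000029657, chr5:149614287-149636376, minus strand) encodes an HSP110 that exchanges the nucleotide, and shared 0 of its words with other genes. It was at 86.16, 136.9, 117.1 and 90.43 CPM in βIgf1r and at 154.4, 175.3, 92.85 and 154.2 CPM in βIgf1rKD mice. In 3 βIgf1rKD mice it was above every control, and in M149 it was near the low end of the controls. The log2 fold change was 0.42 (SE 0.21, adjusted p = 0.987, edgeR), and the exact permutation test gave p = 0.143. With Xist as covariate it was 0.161. Dnajb1 (ENSMUSG00000005483, chr8:83608193-83612653, plus strand) encodes the J-protein HSP40 that is induced with HSP70. Its level was 25.5, 21.57, 23.14 and 25.97 CPM in βIgf1r and 36.16, 36.99, 22.81 and 28.56 CPM in βIgf1rKD mice. Again 3 βIgf1rKD mice were above every control and M149 lay within their range. The means were 24.05 ± 2.063 and 31.13 ± 6.721 CPM (SD, n = 4 each), with a log2 fold change of 0.37 (SE 0.15), an edgeR p = 0.0337, an adjusted p = 0.987 and an exact permutation p = 0.143. Dnajb1 had the smallest unadjusted p of the 10 genes, and with Xist as covariate its log2 fold change was 0.27 and did not pass the unadjusted threshold.

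The HSP90 genes had smaller estimates than those above. Hsp90aa1 (ENSMUSG00000021270, chr12:110690605-110702728, minus strand) encodes the inducible cytosolic HSP90. It was at 346.8, 506.5, 398.6 and 427.8 CPM in βIgf1r and at 503.7, 465.8, 381.1 and 482 CPM in βIgf1rKD mice, and the highest value of all was in the control M151. Hsp90ab1 (ENSMUSG00000023944, chr17:45567775-45573271, minus strand) encodes the constitutive form. It was at 839.8, 1063, 1032 and 880 CPM in βIgf1r and at 1077, 1144, 1031 and 1044 CPM in βIgf1rKD mice, so that M148 and M153 were low and the other 6 mice lay close together. Their log2 fold changes were 0.13 (SE 0.14) and 0.17 (SE 0.14), each with an adjusted p = 0.987 (edgeR), and exact permutation p-values were 0.4 and 0.143. With library size alone both estimates were below 0, at -0.074 and -0.018, where the median of all genes was -0.191.

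Hspb1 (ENSMUSG00000004951, chr5:135887919-135889563, plus strand) encodes HSP25, a small heat shock protein. Its level was 6.468, 7.784, 9.362 and 8.91 CPM in βIgf1r and 7.766, 7.926, 24.51 and 8.928 CPM in βIgf1rKD mice. The mouse M149 stood apart, and the other 3 βIgf1rKD mice lay within the range of the controls. The log2 fold change was 0.59 (SE 0.36, adjusted p = 0.987, edgeR) with an exact permutation p = 0.457, and without M149 it was 0.018. M149 was also the βIgf1rKD mouse with the lowest Hspa1a, Hspa1b, Hspa8, Hsp90aa1, Hsp90ab1, Hsph1, Dnajb1, Hspd1 and Hspe1. Other cell types were measured beside it: the summed level of 7 fibroblast and pericyte markers was 351.5 CPM in M149 and 107.1 to 211.7 CPM in the other mice, that of 6 duct markers was 242.5 and 155.1 to 216.4 CPM, and acinar markers took 16.5% of its counts, the highest share. None of these defining markers was at 0 in every mouse. Scored as the mean z-score of log2 CPM over the 8 mice, M149 had the highest score for leukocyte markers, at 1.046. The control M151 was close, at 0.961, and was higher by summed CPM, at 355.0 against 344.8 in M149. M149 also had the highest score for 21 immediate-early genes, which respond to handling and growth signals, at 0.827. Its scores were the lowest for alpha (-1.021), delta (-1.091), PP (-1.399) and Schwann cell markers (-1.593). By summed CPM Schwann cell markers were lower in M146, at 4.427 against 4.788 in M149. Its β-cell score was -0.618, close to -0.586 in M145, and by summed CPM M145 was the lower of both, at 127000 against 140100. With the acinar score as covariate the log2 fold change of Hspb1 was 0.256, with the immediate-early score 0.397 and with Xist 0.777. The part of fibroblast and duct cells in the Hspb1 level was not tested. Processed pseudogene Hsp25-ps1 shared 52.3% of the words of Hspb1 and had at most 0.4% as many counts.

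The mitochondrial chaperonin genes had the smallest log2 fold changes of the 10 in this fit. Hspd1 (ENSMUSG00000025980, chr1:55077835-55088243, minus strand) was at 168.4, 173.4, 183.3 and 181.8 CPM in βIgf1r and at 213.4, 196.8, 169.9 and 182 CPM in βIgf1rKD mice. Hspe1 (ENSMUSG00000073676, chr1:55088132-55091307, plus strand) was at 38.68, 47.36, 46.35 and 53.98 CPM in βIgf1r and at 46.13, 47.95, 44.18 and 46.54 CPM in βIgf1rKD mice. For Hspd1 M145 and M146 were above every control, and for Hspe1 the 4 βIgf1rKD mice lay inside the range of the controls. Their log2 fold changes were 0.11 (SE 0.093, adjusted p = 0.987) and -0.011 (SE 0.098, adjusted p = 1.0) by edgeR, and the exact permutation p-values were 0.229 and 0.971. The sign for Hspe1 turned by limma-voom (0.001), without M153 (0.063) and without M149 (0.01). The 2 genes share the promoter stretch shown above and overlap at their 5′ ends, and the log2 ratio of Hspd1 to Hspe1 counts was 1.93 ± 0.158 in βIgf1r and 2.04 ± 0.12 in βIgf1rKD mice (SD, n = 4 each, exact permutation p = 0.343).

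**Figure D2:**
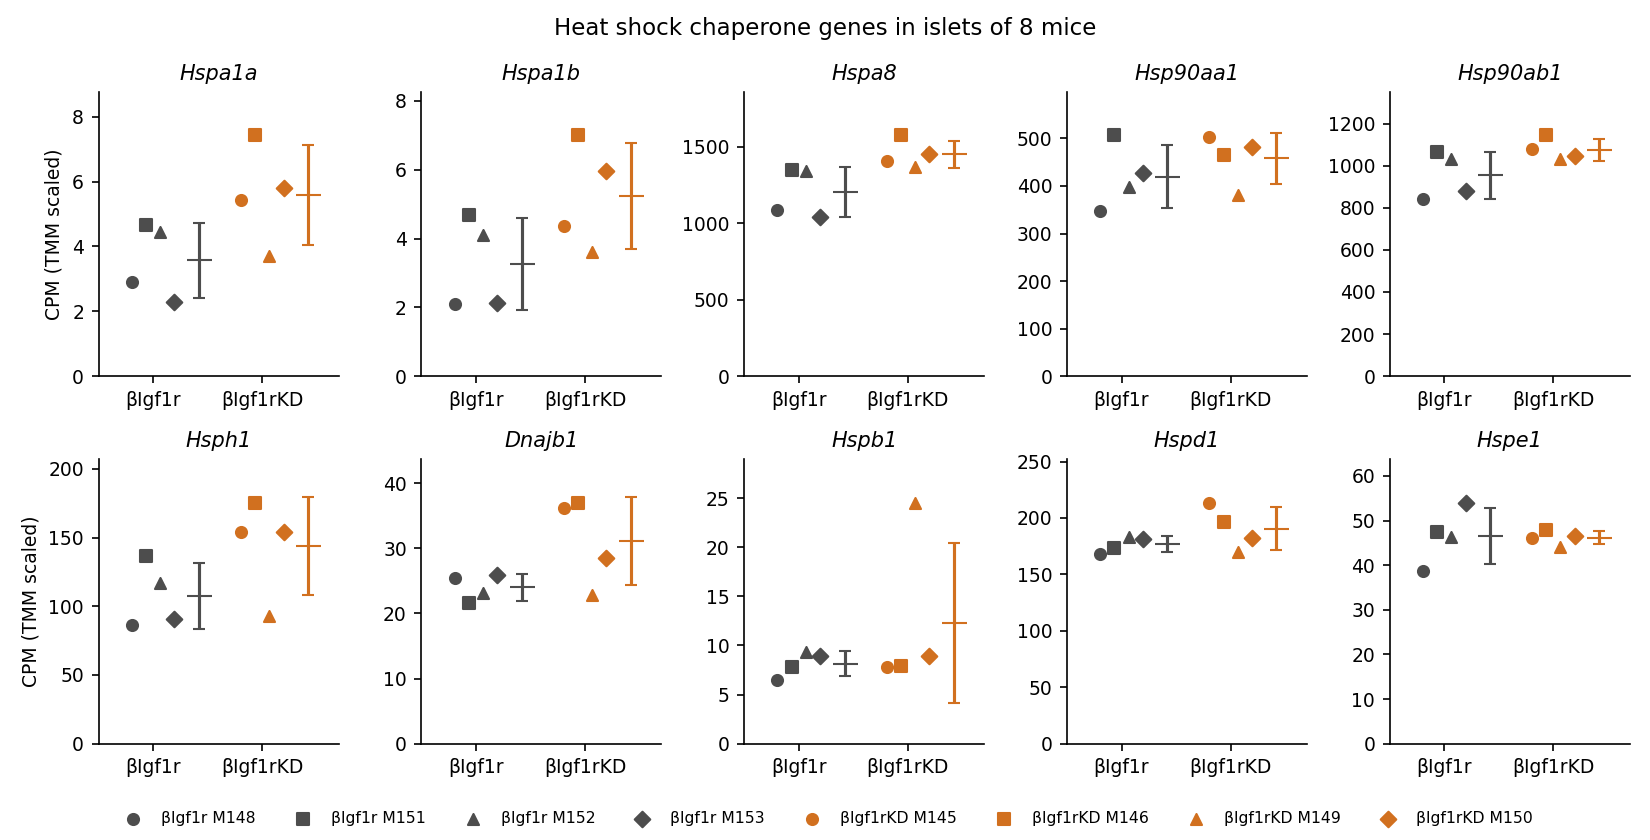
CPM with TMM scaling of the 10 chaperone genes in islets of each mouse, with linear axes from 0. Points are mice, with 1 symbol per mouse within a group, and bars beside them show the group mean ± SD (n = 4). The groups do not overlap for Hspa8, at 1041 to 1348 and 1370 to 1576 CPM, and the point that stands apart for Hspb1 is M149 at 24.51 CPM.

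Per length, as counts per kilobase of exon scaled to the same total in each mouse (TPM units), levels of different genes can be compared. Hsp90ab1 was at 685.7 and Hspa8 at 626.3 as means over the 8 mice, followed by Hsp90aa1 at 227.0, Hspd1 at 140.6, Hspe1 at 63.86, Hsph1 at 35.37, Hspb1 at 19.09, Dnajb1 at 17.45, Hspa1a at 3.157 and Hspa1b at 3.106. Hsp90ab1 ranked 85 and Hspa8 98 among 51906 genes with a length, whereas Hspa1a ranked 10019. The ranges over the 8 mice did not overlap between Hspa8 and Hsp90aa1, between Hspd1 and Hspe1, and between Dnajb1 and Hspa1a, and the other neighbours in this order overlapped. The order of the first pair depends on the length used, since with the longest transcript Hspa8 was at 694.4 and Hsp90ab1 at 664.4. Within each library the constitutive Hspa8 exceeded the sum of the inducible Hspa1a and Hspa1b 73.3 to 159 times, with a median of 101. Constitutive Hsp90ab1 exceeded inducible Hsp90aa1 2.7 to 3.55 times. Hspa8 alone made up 31% to 35.9% of the sum over the 10 genes.

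Ratios within a library do not depend on the scaling between libraries. The log2 ratio of the summed Hspa1a and Hspa1b to Hspa8 counts was -7.744, -7.161, -7.284 and -7.862 in βIgf1r and -7.158, -6.765, -7.536 and -6.938 in βIgf1rKD mice. M151 and M152 lay among the βIgf1rKD mice, and the difference in means was 0.41 (exact permutation p = 0.143, adjusted p = 0.833 over 7 ratios). For the other 6 ratios, among them Hsph1, Dnajb1 and Hspb1 to Hspa8 and Hsp90aa1 to Hsp90ab1, exact permutation p-values were 0.343 to 0.943.

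To show how the genes varied from mouse to mouse, the log2 CPM of each gene was set against its mean over the 8 mice. In M148 0 of the 10 genes were above their own mean and in M153 1, whereas M151 and M152, of the same group, had 7 each. Among βIgf1rKD mice M145 and M150 had 8 each, M146 had 9 and M149 had 3. The median deviation was lowest in M148, at -0.302, and highest in M146, at 0.22. M146, with the highest levels, had the lowest score of immediate-early genes, at -0.7, and M149 the highest, at 0.827. With that score as covariate the median log2 fold change over the 10 genes was 0.318, and 4 of them, Hspa1a, Hspa1b, Hsph1 and Dnajb1, were at the unadjusted threshold. Of all 15474 genes 398 were then higher at it. After the group means were subtracted, Pearson's r with the score was negative for 9 of the 10 genes (-0.342 to -0.899) and 0.738 for Hspb1, which was 0.055 without the 2 mice farthest from the median score. Hsph1 had r = -0.899 (exact permutation p = 0.00134, adjusted p = 0.0134 over the 10 genes), rho of -0.833 (exact permutation p = 0.0154, adjusted p = 0.144), and -0.81 without the 2 farthest mice. The other 9 had adjusted p-values of r from 0.0867 to 0.419. With the group means kept r was -0.727 for Hsph1 (exact permutation p = 0.0351, adjusted p = 0.222), so that this call rests on the subtraction. These correlations were chosen after their values were seen. Where group means were subtracted, the permutation p-values are approximate, because such values are not freely exchangeable between the groups.

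**Figure D3:**
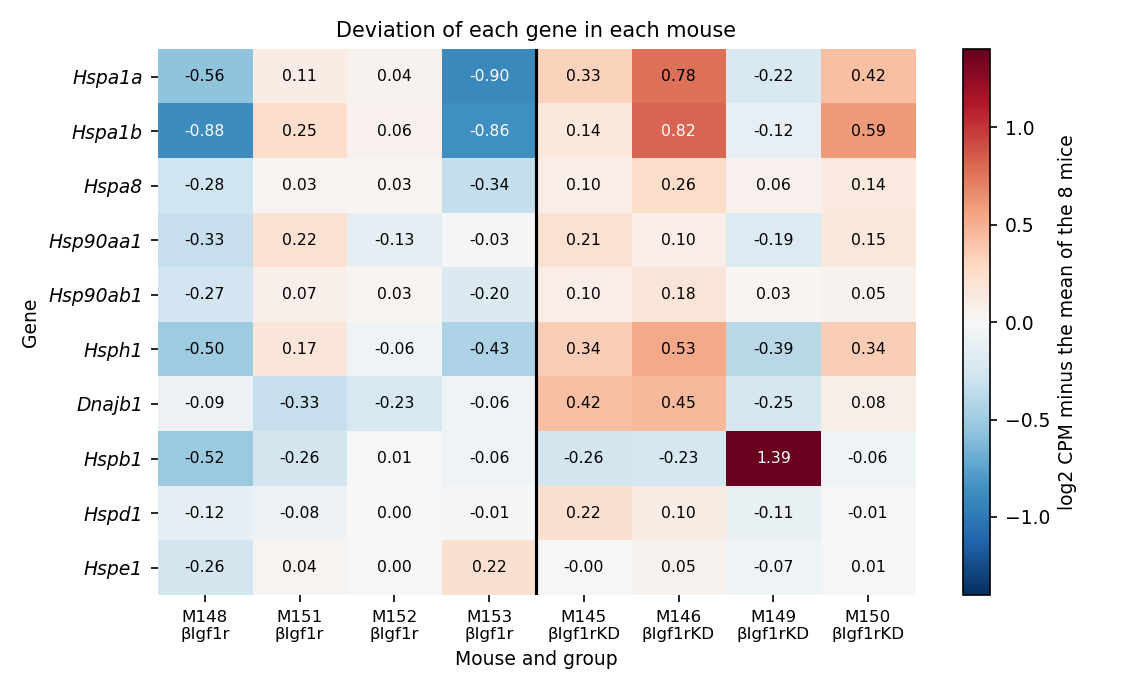
Log2 CPM of each chaperone gene in each mouse minus the mean of that gene over the 8 mice; red is higher, blue is lower, and the black line separates βIgf1r from βIgf1rKD mice. M148 is below the mean for all 10 genes, M146 is above it for 9, and Hspb1 in M149 is at 1.39.

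Within the groups, some of the genes varied together. After the group means were subtracted, Pearson's r over the 8 mice was computed for all 45 pairs. The permutation p-values of these pairs are called exact because all 40320 pairings of the 8 mice were gone through. Values with the group means subtracted are not freely exchangeable between the groups. The p-values and the calls at an adjusted p under 0.05 are therefore approximate, here and for the pairs described next. The median was 0.328 (-0.83 to 0.951), and 9 pairs were above 0.8. Hspa1b and Hspa8 had r = 0.951 (exact permutation p = 0.000719, adjusted p = 0.021 over the 45 pairs) and Spearman's rho of 0.952 (exact permutation p = 0.00114), and r was 0.924 without the 2 mice farthest from the median. Hspa8 and Hsp90ab1 had r = 0.94 (exact permutation p = 0.00144, adjusted p = 0.021) and rho of 0.952 (exact permutation p = 0.00114), and r was 0.875 without the 2 farthest mice. For Hspa1a and Hsph1 r was 0.911 (exact permutation p = 0.00223, adjusted p = 0.021), rho was 0.881 (exact permutation p = 0.00724), and r was 0.891 without the 2 farthest mice. In total 7 pairs had an adjusted p under 0.05, all among Hspa1a, Hspa1b, Hspa8, Hsp90ab1 and Hsph1. The r of 0.942 between Hspa1a and Hspa1b (exact permutation p = 0.00117, adjusted p = 0.021, rho 0.905 with exact permutation p = 0.00456, 0.963 without the 2 farthest mice) includes reads that both genes share. Among all genes tested, 1.64% to 3.27% had r above 0.8 with one of these 5 genes.

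Of the 35 pairs with Hsp90aa1, Dnajb1, Hspb1, Hspd1 or Hspe1, 0 had an adjusted p under 0.05. The highest of these, Hsp90aa1 with Hsph1, had r = 0.808 (exact permutation p = 0.0148, adjusted p = 0.0667) and rho of 0.619 (exact permutation p = 0.115), and r was 0.418 without the 2 farthest mice, so that it rests on those mice. Dnajb1 and Hspd1 had r = 0.797 (exact permutation p = 0.0197, adjusted p = 0.0808), rho of 0.667 (exact permutation p = 0.0831), and 0.658 without the 2 farthest mice. The lowest r was that of Dnajb1 with Hspb1, at -0.83 (exact permutation p = 0.0118, adjusted p = 0.0637), with rho of -0.714 (exact permutation p = 0.0576), and it was -0.416 without the 2 farthest mice. Hspd1 and Hspe1, with their shared promoter stretch, had r = 0.409 (exact permutation p = 0.301, adjusted p = 0.521), rho of 0.357 (exact permutation p = 0.389), and 0.643 without the 2 farthest mice. The median r over all pairs was 0.288 to 0.657 when each mouse was left out, the highest without M153.

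**Figure D4:**
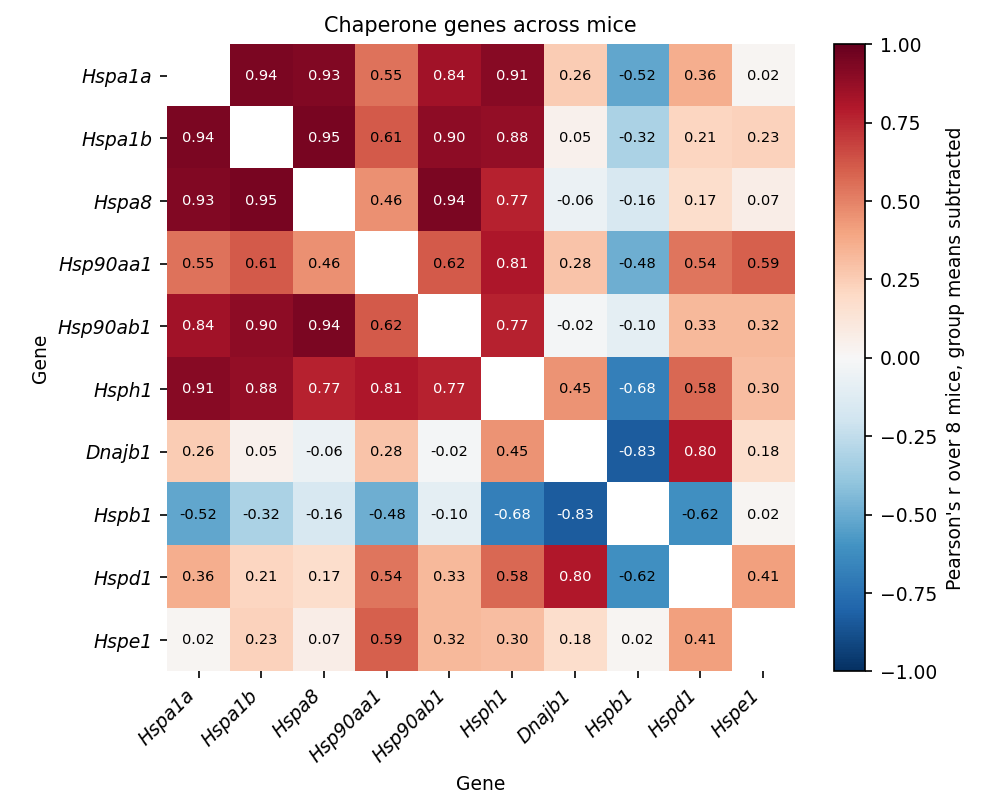
Pearson's r between chaperone genes over the 8 mice, on log2 CPM with group means subtracted; red is positive, blue is negative, and white squares are each gene with itself. The block of Hspa1a, Hspa1b, Hspa8, Hsp90ab1 and Hsph1 is at 0.77 to 0.95, and the row of Hspb1 holds the lowest value, -0.83.

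Other genes of the chaperone network, taken as lists from general knowledge, were compared in the same fit. Of all genes tested 52.3% were higher, and the 25th and 75th percentiles of the log2 fold change were -0.094 and 0.115. At the unadjusted threshold 2.23% of all genes were higher and 1.89% lower, and the groups did not overlap for 2.22%. The medians of the lists, here and in the next paragraph, all lay between these percentiles. Adjusted p-values were 0.987 or higher for each gene named here (edgeR). Of 10 genes around HSF1, 6 were higher and 4 lower, with a median log2 fold change of 0.072. Bag3, a co-chaperone that HSF1 induces and that links HSP70 to autophagy, passed the unadjusted threshold, at 17.37 ± 1.547 in βIgf1r and 21.88 ± 1.796 CPM in βIgf1rKD mice (SD, n = 4 each), without overlap. Hsf1 was at 30.49 ± 1.398 and 32.64 ± 2.246 CPM, and Ubb, which encodes polyubiquitin, had a log2 fold change of -0.171. Of 15 partners of HSP90, 14 were higher with a median of 0.086. Among them Ppid, the cyclophilin that binds HSP90, was at 23.26 ± 0.8589 and 29.45 ± 2.943 CPM, again without overlap, and passed the unadjusted threshold, and the most abundant, Fkbp4 and Fkbp8, had log2 fold changes of 0.048 and 0.054. Of 21 partners of HSP70, 11 were higher and 10 lower, with 0 at the unadjusted threshold. Their median was 0.010, with 0.22 for the J-protein gene Dnaja1 and 0.085 for Hspa4, an HSP110.

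Of 14 genes of TRiC and prefoldin, which fold actin and tubulin, 11 were higher, with a median of 0.057. Tcp1, a TRiC subunit, was at 105.0 ± 2.965 in βIgf1r and 120.0 ± 6.788 CPM in βIgf1rKD mice without overlap and passed the unadjusted threshold. Of all genes 2.22% had no overlap and 2.23% were higher at that threshold. The subunit genes Cct5 and Cct7 had log2 fold changes of 0.11 and 0.009. Of 16 mitochondrial chaperones and proteases 13 were higher, with a median of 0.038 and 0 at the unadjusted threshold, and Hspa9, the mitochondrial HSP70, had 0.045. Of 5 small heat shock protein genes tested 4 were higher, with a median of 0.062. The other 4 of that list did not pass the filter, and Hspb3 and Hspb9 had no counts. Chaperones of the endoplasmic reticulum were on the other side, with 2 of 12 higher, 10 lower and a median of -0.085, and 0 of them passed the unadjusted threshold. Their most abundant genes, Hspa5 (BiP) and Hsp90b1 (GRP94), had log2 fold changes of -0.017 and -0.083. Of 21 immediate-early genes, 12 were higher and 9 lower, with a median of 0.045. Jun and Myc were higher and Nr4a3 lower at the unadjusted threshold, beside 2.23% and 1.89% of all genes.

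**Figure D5:**
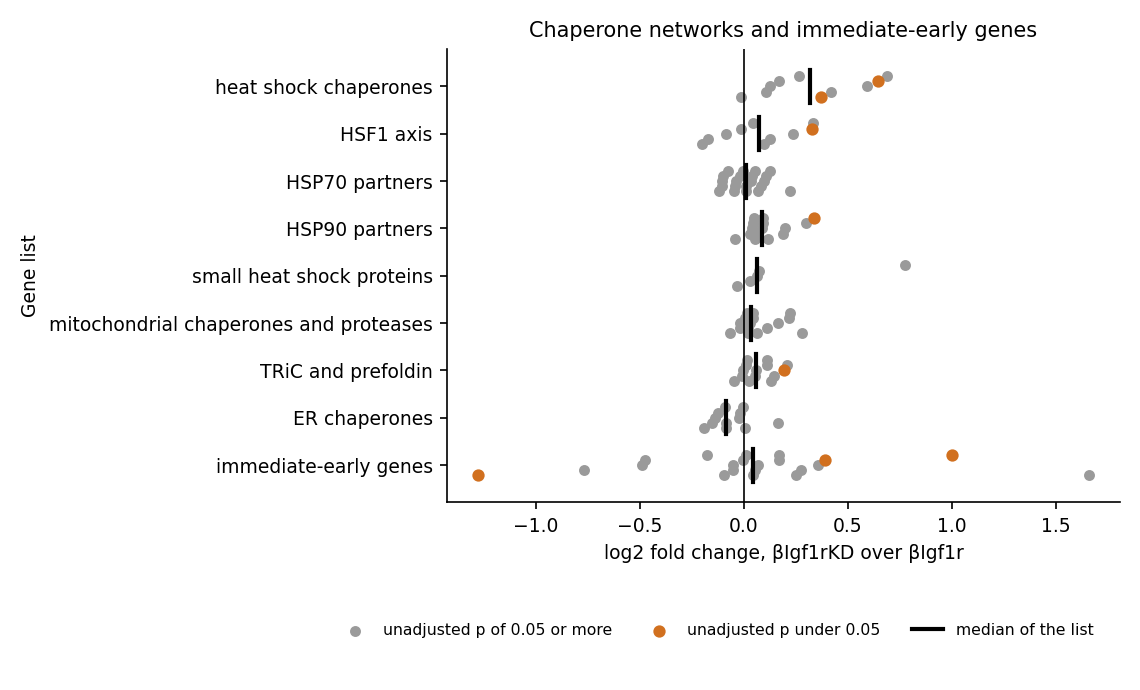
Log2 fold change, βIgf1rKD over βIgf1r, of each gene tested in the chaperone lists and among immediate-early genes. Points are genes, orange points have an unadjusted p under 0.05 by edgeR, and black bars are medians. The median of the 10 heat shock chaperones is 0.32 and that of the endoplasmic reticulum chaperones is -0.085.

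Markers of other cells were counted in the same fit, in which 52.3% of all genes tested were higher. At the unadjusted threshold 2.23% of all genes were higher and 1.89% lower. All 12 acinar markers were higher in βIgf1rKD mice, with a median of 0.84, 0 of them at the unadjusted threshold, and summed levels of 16210 to 160200 CPM in βIgf1r and 35590 to 197900 CPM in βIgf1rKD mice. With the acinar score as covariate Hspa1a and Dnajb1 were the 2 chaperone genes at the unadjusted threshold. Of all 15474 genes 206 were then higher and 180 lower at it, beside 345 and 292 without the score. All 11 endothelial markers were lower, with a median of -0.283 and 6 at the unadjusted threshold, and their summed levels were 456.4 to 568.9 CPM in βIgf1r and 402.5 to 453.2 CPM in βIgf1rKD mice. The part of acinar and endothelial cells in the chaperone levels was not tested.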

How the data were processed

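Islet RNA of 4 βIgf1rKD and 4 βIgf1r mice, grouped by the sample labels, was sequenced from TruSeq Stranded mRNA libraries. The submitters' processing notes name fastp, kallisto and GRCm38, with no versions, and the annotation release is not given in the sources used here. The values deposited by the authors are estimated counts per gene, not scaled between mice, of which 12.395% to 14.689% per mouse are not whole. Reads that fit near-identical genes are divided between them by estimation. Of 53012 Ensembl identifiers 51906 were matched to a symbol, and coordinates are those of GENCODE M21 on GRCm38, with promoters from RefSeq on GRCm38.p6. Promoters of Hspa8, Hsp90aa1 and Hsp90ab1 and protein sequences were not analysed here.

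The estimated counts were rounded, filtered with the defaults of edgeR 4.0.16 (10 counts in 4 mice and 15 in total), scaled by TMM and tested in R 4.3.3 with edgeR's quasi-likelihood method, adjusting p-values after Benjamini and Hochberg. CPM uses TMM factors, and a prior count of 2 was added for log2 CPM. Total counts of 21633925 to 42391106 leave a counting error that is small for Hspa8 and large for Hspa1a and Hspa1b, and intervals between mice cover these 8 animals only. For single values an exact permutation test, two-sided, went through all 70 ways to assign 4 of the mice. Levels per length use the union of annotated exons. The members and lists were chosen with earlier results of these data known, so that no p was computed over a list. Named in full were the 10 genes, and from each chaperone list and the immediate-early list the genes at an unadjusted p under 0.05 and the 2 with the highest mean CPM; a few others are given beside them, chosen after their values were seen. An item that this rule names is not reported here. Marker lists are given by counts and sums.

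Alternatives were RLE size factors, library size alone (added after seeing the data), DESeq2 1.42.0, limma-voom (limma 3.58.1), no filter, at least 10 counts in every mouse, an acinar score, an immediate-early score or Xist as covariate, a prior count of 0.5, the longest transcript as length, and each mouse left out. On simulated counts for these groups, 70.3% of 195 genes changed by a fold change of 2 were called at an adjusted p under 0.05 among 15257 genes, with 8 false calls, and 92.3% of 195 at a fold change of 4 among 15314 genes, with 7 false calls. With no gene changed, 0 of 15286 were called.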

Additional observations from a re-analysis of the deposited data

Results flagged for a closer look

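Hspb1 in the βIgf1rKD mouse M149 had a log2 CPM of 4.619, whereas the other 3 βIgf1rKD mice lay between 2.97 and 3.17. The gap to the nearest mouse was 0.879 of the range of the group, above Dixon's critical value at the 95% level for 4 mice. Of 22 sets of 4 mice examined in this way 1 stood out, and chance alone gives about 1 in 20, or 1.1 sets.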

How the results depend on the processing

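The number of chaperone genes at an unadjusted p under 0.05, 2 in the fit described, was 5 by DESeq2, 4 by limma-voom, 4 with the immediate-early score as covariate, 1 with Xist as covariate, 0 with library size alone, and 0 to 4 with each mouse left out. All genes higher at that threshold, 345 in the fit described, numbered 393, 245, 398, 729 and 233 in this order. With each mouse left out they numbered 188 to 646. The number of chaperone genes whose groups do not overlap, 1 beside 2.22% of all genes, was 0 with library size alone. It was 1 to 4 with each mouse left out. The 4 came without M149, the βIgf1rKD mouse lowest for each of the 10 genes but Hspb1. Smaller groups separate more easily, and the share over all genes is not given for those settings. The median log2 fold change over the 10 genes, 0.32, was 0.137 with library size alone, 0.187 with Xist as covariate and 0.25 to 0.339 with each mouse left out. The summed Hspa1a and Hspa1b, at 0.67, had 0.416 with Xist as covariate, 0.511 with library size alone and 0.497 to 0.854 with each mouse left out. Signs turned for Hsp90aa1 with Xist (-0.003) and with library size alone (-0.074), for Hsp90ab1 (-0.018) and Hspd1 (-0.084) with library size alone, and for Hspe1 by limma-voom (0.001), without M153 (0.063) and without M149 (0.01), with -0.092 to 0.063 over each mouse left out. Library size alone leaves out the composition factors, whose values overlap between the groups. The split of all genes at the unadjusted threshold under library size alone was 233 higher and 482 lower, beside 345 and 292. The cause of a changed call was not tested. Over all genes, 8 had an adjusted p under 0.05 by DESeq2 and 1 each by limma-voom, with library size alone and with the immediate-early score, beside 0 by edgeR and 0 to 0 with each mouse left out. At the unadjusted threshold 637 genes became 1143 with Xist, 386 with the acinar score, 1098 without the filter, and 383 to 1114 with each mouse left out. The median correlation was 0.288 to 0.657 with each mouse left out. Over all values for single genes under these alternatives, 14 passed the threshold newly, 14 no longer passed it and 7 turned sign. No paired analysis was possible because no mouse number occurs in both groups. Counts of 45 to 242 limit what Hspa1a and Hspa1b can show.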

Other observations

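The genes whose log2 CPM followed the summed Hspa1a and Hspa1b most closely over the 8 mice were Kdm5c (Pearson's r of 0.986), Ppm1h (0.98), Rtf1 (0.971), Kdm2a (0.969) and Dcaf1 (0.963), and 39 genes were above 0.9. For Hspd1 the closest were Elf3 (0.95), Zc2hc1c (0.946), Plch1 (0.934), Map3k21 (0.922) and AC141882.2 (0.915), and 6 genes were above 0.9. These are the highest of all genes tested over the same 8 libraries, given as a description, with no test. Kdm5c and Kdm2a encode histone demethylases, and Elf3 encodes an epithelial transcription factor.

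Among the chaperone network, Cryab, which encodes the small heat shock protein αB-crystallin, was at 2.768, 3.819, 5.447 and 4.171 CPM in the βIgf1r mice M148, M151, M152 and M153, and at 8.889, 2.214, 10.88 and 5.796 CPM in the βIgf1rKD mice M145, M146, M149 and M150, with a log2 fold change of 0.77 (SE 0.42, adjusted p = 0.987, edgeR). As for Hspb1, M149 had the highest value, but M145 was high as well. Atf3, an immediate-early and stress response gene, was at 8.575 CPM in M149 and at 0.2856 to 1.924 CPM in the other 7 mice. Both genes were chosen after their values were seen.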
